A study of Mus musculus with 24 samples.

Results

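The eukaryotic initiation factors (gene symbols beginning with Eif) and elongation factors (Eef) and their direct regulators were followed in the mouse retina after hypoxia. Members were all probe sets of the array to which the array annotation gives exactly 1 gene symbol that starts with Eif or Eef and a digit. These were 155 probe sets of 58 genes, out of 45037 probe sets without controls and 18193 genes that had a probe set of their own, and 8 further probe sets that carry several symbols including such a gene were counted but not named. Whole-retina RNA was hybridised to 24 Affymetrix arrays, which makes 3 for every one of the 8 groups, and each array held a pool of 3 retinas of 3 mice. Hypoxic BALB/c mice had spent 6 h at 6% oxygen and their retinas were isolated after 0, 2, 4 or 16 h of reoxygenation in darkness, and normoxic BALB/c controls were treated in parallel at each of these 4 time points. The treatment text of the labels also names light exposure once reoxygenation had ended, while their extraction text and the methods place the isolation of array retinas at the stated times, so that no light exposure was assumed here. All mice carried the same light-sensitive variant of Rpe65, and the sources used here state neither sex nor age. Values are log2 signals, so that a difference of 1 is a 2-fold change, and a level of one probe set cannot be set against that of another. Within a group the 3 pools came from different mice.

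Initiation factors bring the initiator tRNA and the small ribosomal subunit to the capped end of an mRNA and let it scan to the start codon. Elongation factors then deliver aminoacyl-tRNAs and move the ribosome along. Cells short of oxygen or nutrients are known to slow initiation through phosphorylation of the alpha subunit of eIF2, which blocks its exchange factor eIF2B, and through the eIF4E binding proteins, which hold back the cap-binding protein eIF4E when mTORC1 is inactive. Both controls act on proteins, which arrays do not measure.

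Testing required a mean log2 signal of at least 6.69 in hypoxia or in normoxia of the time point concerned, the lowest point between both peaks of the signal distribution. At 1 or more time points 108 of the 155 probe sets, from 53 genes, were tested. The other 47 probe sets stayed below the threshold throughout, and 5 genes had no probe set above it (Eif2ak2, Eif4a3, Eef2k, Eef2kmt and Eef1aknmt). At 0 h 106 probe sets were tested, and in 3 of these only 1 treatment reached the threshold, namely hypoxia for Eif2ak1 1436006_at and Eif4ebp1 and normoxia for Eif4ebp2 1417084_at. These probe sets could enter the test only through the treatment in which they were high.

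The pools differed in the signal of marker genes of tissue next to the retina. Markers of the retinal pigment epithelium (RPE), the cell layer behind the photoreceptors, differed between the treatments. Their summed linear signal at 0 h was 8050 to 8594 in the hypoxic pools and 925 to 1359 in the normoxic pools. Of the 8 tested markers 7 were higher in hypoxia and 1, Mitf, was lower (-0.44, limma adjusted p = 0.0181). The median log2 change of the tested markers was 2.68. At 2 h the sums were 2590 to 6090 in hypoxia and 1345 to 3733 in normoxia. Lrat, Best1 and Slc6a20a never reached the signal threshold. Lens markers were present in every group and varied between pools, with sums at 0 h of 60832 to 141977 in hypoxia and 5852 to 97194 in normoxia. Of the 7 tested rod markers 0 changed at 0 h, with sums of 86033 to 88109 in hypoxia and 89324 to 90623 in normoxia. Bipolar cell markers had 2 of 5 tested genes lower at 0 h, with sums of 14292 to 15206 in hypoxia and 15360 to 16884 in normoxia, and 2 of 6 lower at 2 h (13010 to 13859 in hypoxia and 15057 to 15484 in normoxia). At 0 h 1 of 7 cone and 1 of 4 endothelial markers were lower, 1 of 8 ganglion cell and 1 of 8 Mueller glia markers were higher, and none of 6 amacrine and 3 microglia markers passed. Over all tested probe sets 15.2% were higher and 17.2% lower at 0 h, and 7.38% were lower at 2 h. With so few markers per cell type these counts cannot be told from those shares, except for RPE. The part of RPE, lens or other marker RNA in the values below was not tested. In RNA of whole tissue, fewer cells of a type and less RNA per cell cannot be told apart. By mean Euclidean distance to all other arrays, the 3 hypoxic pools at 0 h lay farthest away (71.0 to 76.5), followed by pool 3 of normoxia at 16 h (68.0) and pool 2 of normoxia at 0 h (67.4). Without these 2 normoxic pools 28 members changed at 0 h (26.2%, against 30.1% of all tested probe sets). With them it was 31 (29.2%, against 32.4%).

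Translation factors changed about as often as any other gene at 0 h. Of the 106 tested probe sets 31 changed (29.2%; limma, Benjamini-Hochberg adjusted p under 0.05), 18 higher and 13 lower in hypoxia, while 32.4% of all 18799 tested probe sets changed, 15.2% higher and 17.2% lower. The 31 probe sets belong to 22 of 53 tested genes. Among probe sets whose mean reached the threshold in both treatments, 28 of 103 members (27.2%) changed at 0 h, against 30.4% of all, and 19 of 104 (18.3%) at 2 h, against 15.9% of all. At 2 h 19 of 105 members changed (18.1%), 13 higher and 6 lower, against 16.6% of all tested probe sets, 9.19% higher and 7.38% lower. Of the members tested at both times 13 of 104 changed in the same direction at both, against 9.33% of all probe sets tested at both. At 4 h limma called 0 of 106 members, while 1.43% of all tested probe sets changed, and 13 members (12.3%) had an unadjusted p under 0.05, against 15.6% of all. At 16 h limma called 0 of 105 members and 0% of all tested probe sets, and 7 members (6.67%) had an unadjusted p under 0.05, against 6.36% of all. With the methods' t-test and adjusted p, 19 members (17.9%) changed at 0 h, against 14.9% of all probe sets, and 0 changed at 2 h, against 0.839% of all. It called 0 members at 4 h and 16 h.

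All shifts were small. No tested member changed more than 2-fold at any time point, and the changes at 0 h ran between -0.996 and 0.78. The members had a median log2 change of 0.06 directly after hypoxia and of 0.10 after 2 h, beside -0.01 and 0.01 over all tested probe sets. At the times of 4 and 16 h their medians were 0.03 and 0.01, beside 0.02 and 0.02 over all. The median size of a change, whatever its sign, was 0.15 at 0 h and 0.16 at 2 h for members, and 0.18 and 0.14 for all probe sets. At 0 h 65.1% of the members lay above 0, against 48.9% of all tested probe sets, and at 2 h 71.4%, against 51.9%. Hypoxic and normoxic pools did not overlap in 50 members at 0 h (47.2%, against 45.4% of all probe sets), in 49 at 2 h (46.7%, against 34.8%), in 26 at 4 h (24.5%, against 27.3%) and in 14 at 16 h (13.3%, against 11.1%). At 0 h 32 of these 50 were higher and 18 lower in hypoxia, and of all probe sets 21.5% were higher and 23.9% lower without overlap.

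**Figure D1:**
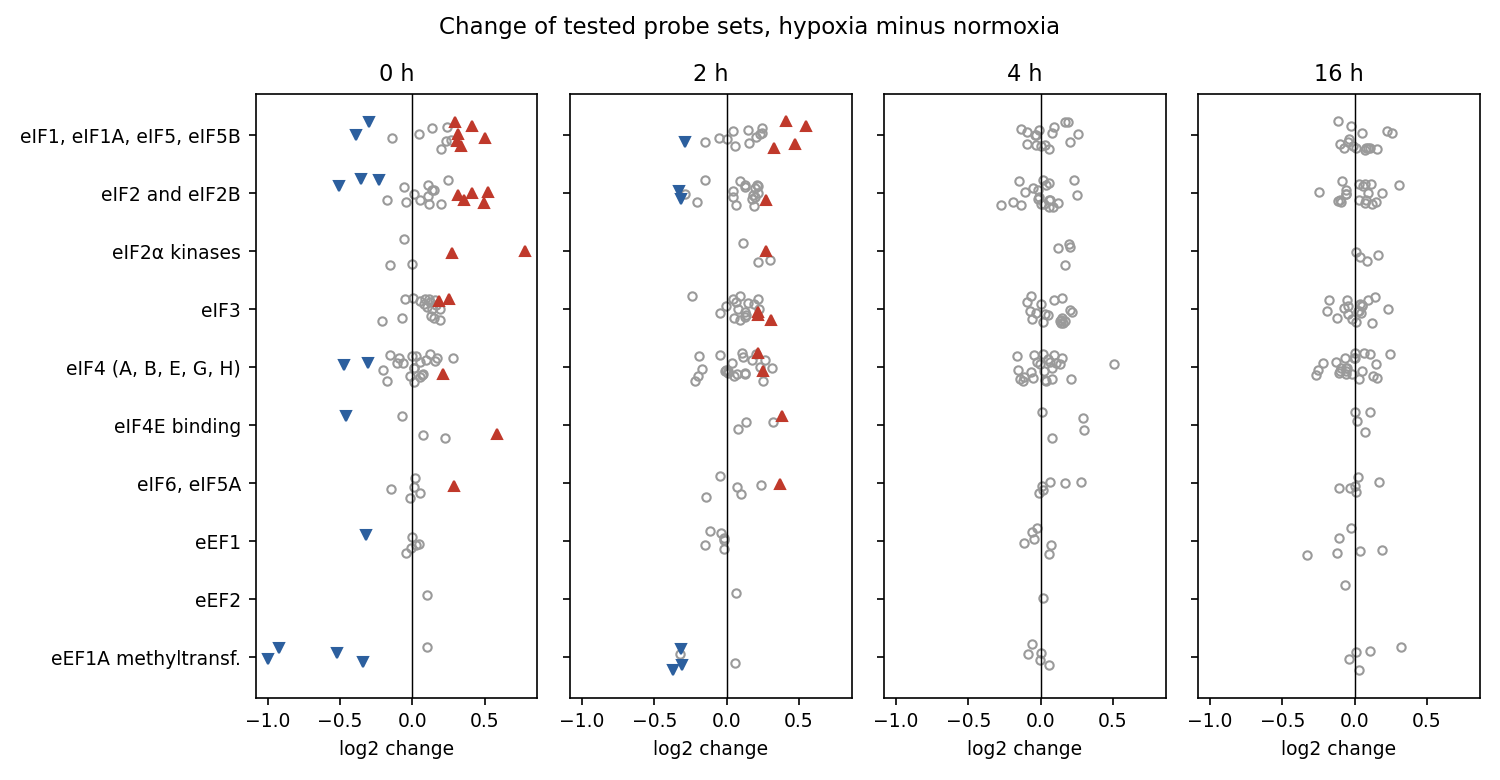
Log2 change (hypoxia minus normoxia, horizontal axis) of every tested member probe set at 0, 2, 4 and 16 h, in rows by role. Red upward triangles were higher and blue downward triangles lower in hypoxia (limma adjusted p under 0.05), and open circles did not pass. At 0 h 18 triangles point up and 13 down, with the farthest fall, -0.996, among the eEF1A methyltransferases, and at 4 h and 16 h there are none.

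Of the factors of scanning and start codon selection 6 of 15 tested probe sets were higher and 2 lower in hypoxia at 0 h, with a median log2 change of 0.24. Among all tested probe sets 15.2% were higher and 17.2% lower at that time. Eif5, which encodes the factor that makes eIF2 hydrolyse its GTP at the start codon, had log2 signals of 11.82, 11.79 and 11.77 in the hypoxic pools at 0 h, against 11.33, 11.27 and 11.28 in the normoxic pools (1415723_at). All hypoxic pools lay above all normoxic ones. The change was 0.50 ± 0.08 (SE, n = 3 pools each; limma adjusted p = 4.39e-05), a 1.41-fold rise. A second Eif5 probe set, 1433631_at, rose by 0.32 ± 0.08 (adjusted p = 0.00603), and the other 3 had changes of 0.04 to 0.19 that did not pass. By 2 h the change of 1415723_at was 0.15 and did not pass (limma adjusted p = 0.212).

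Eif1b, a close relative of Eif1 whose product guards start codon fidelity, had log2 signals of 11.13, 11.06 and 11.22 in hypoxia at 0 h and of 10.86, 10.76 and 10.56 in normoxia. The pools did not overlap, and the change was 0.41 ± 0.09 (limma adjusted p = 0.00152). Eif1ad, which encodes a protein with an eIF1A-like domain, was higher at both early times in probe set 1428542_at. Its values were 9.58, 9.75 and 9.76 in hypoxia and 9.36, 9.44 and 9.29 in normoxia at 0 h (change 0.33, adjusted p = 0.00469), and 9.68, 9.54 and 9.59 in hypoxia and 9.25, 9.20 and 9.14 in normoxia at 2 h (change 0.41, adjusted p = 0.0028). No hypoxic pool overlapped a normoxic one at either time. The second Eif1ad probe set, 1455341_at, lies near the signal threshold, with a change of -0.22 at 0 h, where it was not tested, and of 0.16 at 2 h that did not pass (adjusted p = 0.467). Eif5b, which encodes the GTPase that joins the large ribosomal subunit, had the largest change of a tested member at 2 h in 1 of its 3 tested probe sets. This one, 1435592_at, which has the lowest signal of the 3, had 7.84, 7.61 and 7.71 in hypoxia at 2 h, against 7.23, 7.22 and 7.06 in normoxia, a change of 0.55 ± 0.11 (adjusted p = 0.00187), which is 1.47-fold. The brighter 1434604_at and 1434605_at had changes of 0.20 and 0.24 at 2 h that did not pass (adjusted p = 0.403 and 0.38). At 0 h the change of 1435592_at was 0.23 and did not pass (adjusted p = 0.114), and the difference between both times did not pass either (-0.32, adjusted p = 0.23).

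The genes for eIF1A, which occupies the A site of the small subunit during scanning, gave readings in opposite directions. For Eif1a at 0 h, probe set 1424344_s_at had 9.67, 9.75 and 9.81 in hypoxia and 9.51, 9.39 and 9.44 in normoxia (change 0.30 ± 0.08, limma adjusted p = 0.00658). Probe set 1424343_a_at had 8.97, 9.23 and 9.14 in hypoxia and 9.47, 9.39 and 9.65 in normoxia (change -0.39 ± 0.11, adjusted p = 0.00761). Neither pair of groups overlapped, so that the same gene was read as higher by one probe set and lower by the other. At 2 h 1424344_s_at was higher again (0.47, adjusted p = 0.000516), while 1424343_a_at had a change of 0.23 that did not pass, and its effects at 0 h and 2 h differed by -0.62 (adjusted p = 0.0119). The fall of 1424343_a_at at 0 h no longer passed without pool 3 of normoxia (adjusted p = 0.0505). For Eif1ax at 0 h, 1437071_at was higher by 0.31 ± 0.08 (adjusted p = 0.00533) and 1419736_a_at lower by a change of -0.30 ± 0.10 (adjusted p = 0.0202). The third Eif1ax probe set, 1449576_at, had a change of -0.14 that did not pass. The fall of 1419736_a_at did not pass without pool 2 (adjusted p = 0.11) or pool 3 (0.0827) of hypoxia or pool 3 of normoxia (0.0625). On this array type the suffix _a_at marks a probe set for several transcripts of 1 gene, _s_at and _x_at mark probe sets that can bind transcripts of several genes, and _at one that is meant to be specific. Eif1a and Eif1ax encode near-identical proteins, so that their signals may not be fully separate.

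**Figure D2:**
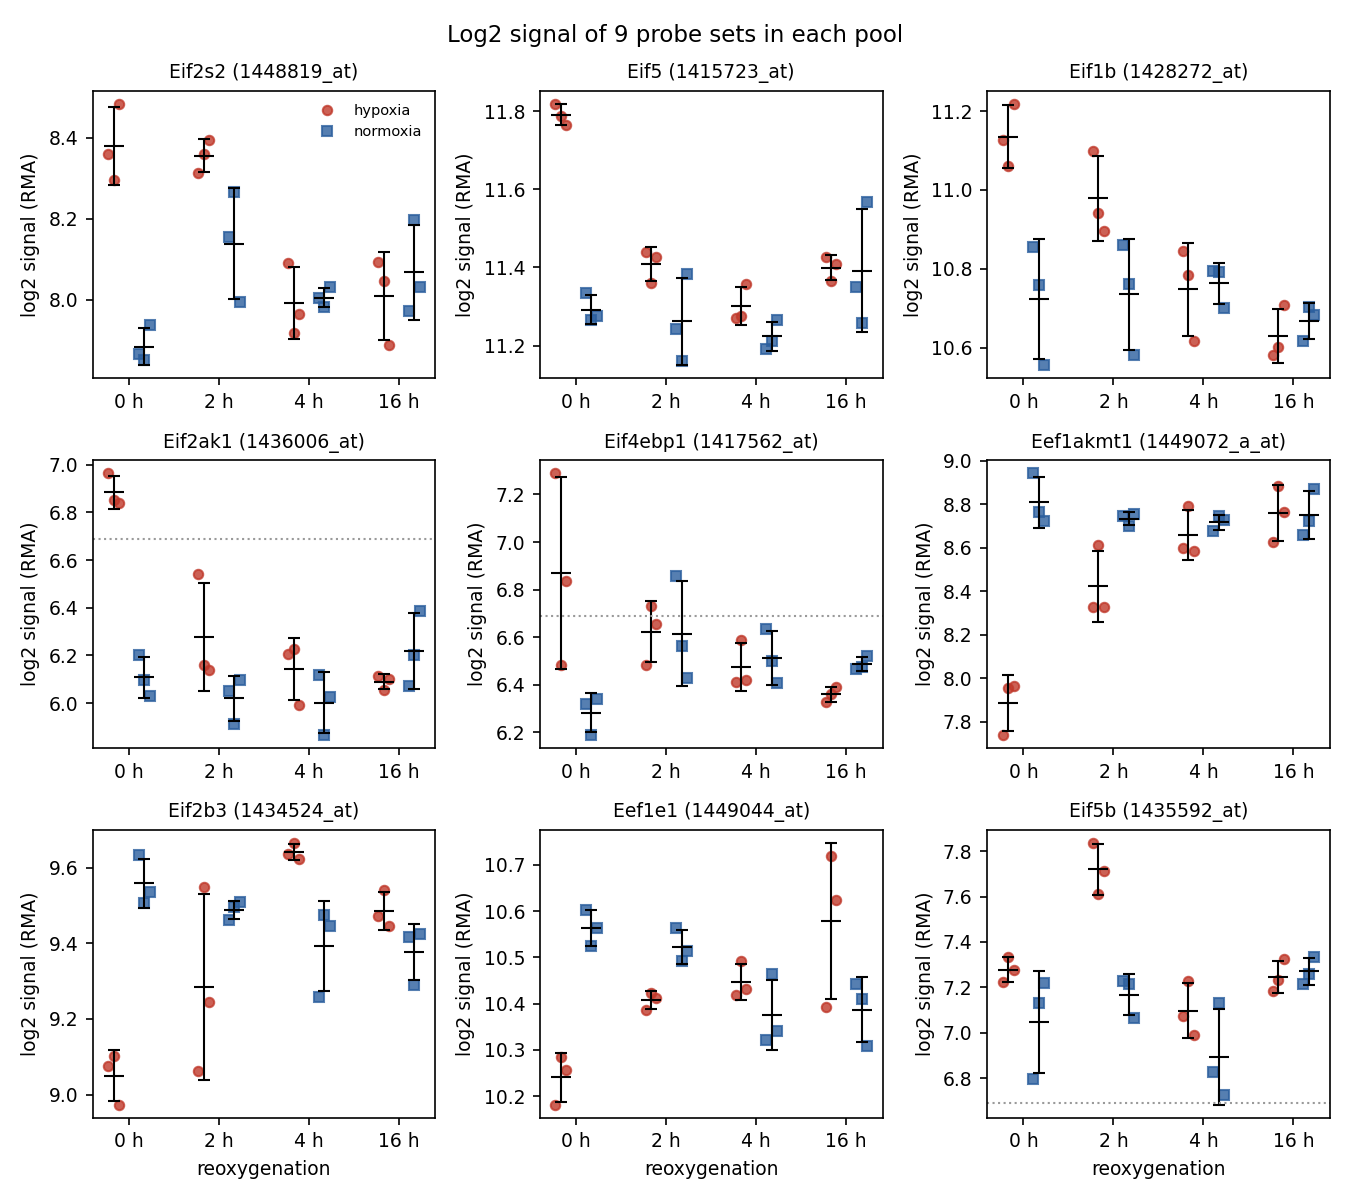
Log2 signal (vertical axis, a scale of its own in each panel) of 9 member probe sets in every pool at 0, 2, 4 and 16 h of reoxygenation. Each is the tested probe set of its gene with the smallest limma p at 0 h or 2 h. The other tested probe sets of Eif2ak1 and Eif5b did not pass at these times. Red circles are hypoxic and blue squares normoxic pools, horizontal bars with error bars give the mean and SD of 3 pools, and the dotted line is the signal threshold of 6.69. At 0 h the hypoxic pools lie above the normoxic pools for Eif2s2, Eif5, Eif1b, Eif2ak1, Eif4ebp1 and Eif5b and below them for Eef1akmt1, Eif2b3 and Eef1e1. Eif5b shows its widest gap at 2 h, a change of 0.55.

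The subunits of eIF2 and of its exchange factor eIF2B had 16 tested probe sets at 0 h, of which 4 were higher, all of Eif2s2, and 1 was lower, that of Eif2b3, with a median change of 0.12. Together with Eif2a and Eif2d, which are no subunits, 5 of 20 were higher and 3 lower. Over all tested probe sets the shares were 15.2% higher and 17.2% lower. Eif2s2, the beta subunit of eIF2, was the most repeated reading of a rise. Its probe set 1417712_at had 11.66, 11.15 and 11.56 in hypoxia at 0 h and 10.93, 10.90 and 10.96 in normoxia, with no overlap and a change of 0.52 ± 0.10 (limma adjusted p = 0.000403), which is 1.44-fold. Probe set 1448819_at had 8.36, 8.29 and 8.48 in hypoxia and 7.86, 7.85 and 7.94 in normoxia (change 0.50 ± 0.09, adjusted p = 0.000127). Pool 2 was the lowest of the hypoxic pools in both. Of the 5 tested Eif2s2 probe sets 4 rose, by 0.36 to 0.52, and the fifth, 1448820_a_at, had a change of 0.25 that did not pass (adjusted p = 0.141). A sixth, 1441023_at, lay below the signal threshold and had a change of -0.43 that was not tested. At 2 h the change of 1448819_at was 0.22 (adjusted p = 0.0843), and at 4 h it was -0.01. For this probe set the effects at 0 h and 4 h were 0.51 apart (adjusted p = 0.00527).

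The gamma subunit genes did not pass at 0 h, and the alpha subunit was not analysed here. The 3 tested probe sets of Eif2s3x, the gamma subunit encoded on the X chromosome, had changes of 0.11 to 0.20. Eif2s3y, its counterpart on the Y chromosome, had 1 tested probe set whose values ran over all arrays between 8.51 and 9.63, and its change of 0.13 had an SE of 0.20. Eif2a encodes a separate protein that can bind initiator tRNA and is no subunit of eIF2, and it was higher at 0 h. Its values were 8.59, 8.70 and 8.70 in hypoxia and 8.26, 8.27 and 8.50 in normoxia (change 0.32, limma adjusted p = 0.0058).

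Eif2b3, the gamma subunit of the exchange factor, was lower at 0 h. It had 9.07, 9.10 and 8.97 in hypoxia, against 9.63, 9.51 and 9.54 in normoxia, a change of -0.51 ± 0.09 (limma adjusted p = 0.000284) with no overlap. At 2 h the hypoxic pools were spread over 9.06, 9.55 and 9.24, beside 9.46, 9.50 and 9.51 in normoxia, and the change of -0.20 did not pass. At 4 h they stood at 9.64, 9.66 and 9.62, all above the normoxic 9.26, 9.48 and 9.45, with a change of 0.25 that did not pass (adjusted p = 0.2). The effects at 0 h and 4 h differed by -0.76 (adjusted p = 0.000456) and those at 0 h and 16 h by -0.62 (adjusted p = 0.00238). Eif2b4, the delta subunit, moved later. Its change was -0.17 at 0 h, which did not pass, and 0.27 at 2 h (adjusted p = 0.0209), where 9.85, 9.78 and 9.71 in hypoxia stood above 9.52, 9.52 and 9.49 in normoxia. That rise did not pass without pool 1 of hypoxia (adjusted p = 0.099) or pool 3 of normoxia (0.0647). The difference between 0 h and 2 h was -0.44 (adjusted p = 0.0139) and did not pass without pool 1 of hypoxia at 0 h (0.0509). Eif2d, which encodes a factor that can load tRNA on the small subunit without GTP, was lower at 0 h in 2 of 3 tested probe sets (-0.36 and -0.23) and at 2 h in the same 2 (-0.32 and -0.33). None of these 4 calls held without each pool in turn. At 0 h the fall of 1436724_a_at had an adjusted p of 0.105 without pool 2 of hypoxia and of 0.056 without pool 1 of normoxia, and at 2 h that of 1451211_a_at had 0.0675 without pool 1 of hypoxia.

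Of the 4 kinases that phosphorylate the alpha subunit of eIF2, 3 had a tested probe set. Eif2ak1, whose product HRI is known as the haem-controlled kinase, was higher at 0 h in probe set 1436006_at, which was tested only because its hypoxic mean reached the threshold. The hypoxic pools had 6.96, 6.85 and 6.84 and the normoxic pools 6.20, 6.10 and 6.03, without overlap, and the change was 0.78 ± 0.11 (limma adjusted p = 1.02e-05), which is 1.71-fold. These values lie around the signal threshold, which no normoxic group reached, and under a threshold stricter by 1 the probe set is not tested. The other tested Eif2ak1 probe sets, with higher signal, had changes of -0.06 ± 0.11 and -0.15 ± 0.12 at 0 h (adjusted p = 0.735 and 0.327), so that 1 of 3 probe sets carried the rise. By 16 h the change of 1436006_at was -0.13, a difference from 0 h of 0.91 (adjusted p = 0.000224). Eif2ak3, which encodes PERK, the kinase of the endoplasmic reticulum, was higher by 0.27 ± 0.09 at 0 h (adjusted p = 0.0231), with 9.36, 9.25 and 9.48 in hypoxia and 9.16, 9.14 and 8.97 in normoxia. It was also higher by 0.27 at 2 h (adjusted p = 0.0381), where the pools overlapped. At 0 h the rise did not pass without pool 1 (adjusted p = 0.054) or pool 3 (0.119) of hypoxia or pool 3 of normoxia (0.117), and at 2 h it did not pass without pool 1 of hypoxia (0.207) and 3 other pools. The 1 tested probe set of Eif2ak4, which encodes the amino acid sensor GCN2, had a change at 0 h that was close to 0 (adjusted p = 0.992). Another, 1443235_at, lay below the signal threshold and was 1.48-fold higher in hypoxia at 0 h, which was not tested.

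The subunits of eIF3, the large scaffold on which initiation complexes assemble, showed small changes. At 0 h 16 of 19 tested probe sets lay above 0, against 48.9% of all, with a median of 0.12. Pools did not overlap in 9 that were higher and 1 that was lower, against 21.5% and 23.9% of all. Limma called 2 of the 19 higher and 0 lower, against 15.2% and 17.2% of all. Eif3l was higher by 0.25 ± 0.08 (limma adjusted p = 0.0123), with 10.76, 10.65 and 10.82 in hypoxia and 10.49, 10.50 and 10.48 in normoxia, and the call was lost without pool 3 of hypoxia (0.0659). Eif3e was higher in 1 of 3 tested probe sets, by 0.19 ± 0.07 (adjusted p = 0.0359), with 12.08, 12.03 and 12.10 in hypoxia and 11.90, 11.89 and 11.85 in normoxia. The Eif3e call was lost without any 1 of 5 of the 6 pools at 0 h (adjusted p between 0.0598 and 0.103). At 2 h pools did not overlap in 10 of 19, all higher, against 34.8% of all in either direction. Limma called 3 of 19 higher at 2 h, Eif3d (0.30), Eif3c (0.22, 1 of 4 tested probe sets) and Eif3e (0.21). It called none lower, and over all tested probe sets 9.19% were higher and 7.38% lower. None of these 3 calls was kept without each pool in turn, and without pool 1 of hypoxia their adjusted p was 0.0597, 0.0776 and 0.104.

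Of the cap-binding complex and its partners 1 of 24 tested probe sets was higher and 2 were lower at 0 h, with a median of 0.01. Among all tested probe sets 15.2% were higher and 17.2% lower. Of these 24, hypoxic and normoxic pools did not overlap in 5 that were higher and 6 that were lower, near the 21.5% and 23.9% of all tested probe sets. No probe set of Eif4g1 was among the members. Eif4e, which encodes the cap-binding protein, was lower in 1 of 3 probe sets. For 1450908_at the values at 0 h were 10.87, 10.93 and 10.99 in hypoxia and 11.23, 11.22 and 11.26 in normoxia, a change of -0.31 ± 0.08 with no overlap (limma adjusted p = 0.00764). The others, 1423220_at and 1450909_at, had changes of -0.02 and 0.17 that did not pass. Eif4e3, a relative of Eif4e that also binds the cap, had 7.40, 7.37 and 7.13 in hypoxia and 7.80, 8.01 and 7.51 in normoxia at 0 h (1417978_at, change -0.48 ± 0.12, adjusted p = 0.00528). Its other tested probe set, 1417977_at, had a change of -0.20 that did not pass (adjusted p = 0.219). At 2 h the change of 1417978_at was 0.18 and did not pass, and its effects at 0 h and 2 h differed by -0.65 (adjusted p = 0.0231). This difference did not pass without pool 3 of hypoxia at 0 h (0.0639) or 3 other pools. Eif4b, which stimulates the helicase eIF4A, was higher by 0.21 at 0 h (1426380_at, adjusted p = 0.0478) and by 0.25 and 0.22 in 2 probe sets at 2 h (adjusted p = 0.0349 and 0.0489). Leaving out 1 of 4 pools at 0 h ended that call, with the highest adjusted p of 0.157 without pool 3 of normoxia, and at 2 h the highest were 0.188 and 0.21, again without pool 3 of normoxia. The tested probe sets of the helicases Eif4a1 and Eif4a2 and of Eif4g2, Eif4g3 and Eif4h had changes between -0.18 and 0.10 at 0 h. None of them passed.

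The eIF4E binding proteins rested on weak signal. Eif4ebp1, which encodes the best known of these inhibitors, had 7.29, 6.48 and 6.84 in hypoxia and 6.32, 6.19 and 6.34 in normoxia at 0 h. All hypoxic pools were above all normoxic ones, but pool 1 of hypoxia stood well above the other two. The change was 0.59 ± 0.14 (limma adjusted p = 0.00244). Without pool 1 of hypoxia it was 0.38 and the probe set fell below the threshold for testing. Its other probe sets, 1434976_x_at and 1417563_at, lay below the threshold and were not tested. Their hypoxic levels at 0 h were 1.58 and 0.92 of the normoxic ones. Eif4ebp2, a second such inhibitor, was read in 3 ways. Probe set 1417084_at was lower at 0 h by a change of -0.46 ± 0.17 (adjusted p = 0.0438), with 6.47, 6.67 and 6.75 in hypoxia and 6.86, 7.38 and 7.02 in normoxia. This call was lost without any 1 of 5 pools, up to an adjusted p of 0.212 without pool 2 of normoxia. The other probe sets, 1436158_at and 1437733_at, had changes of 0.23 and -0.07 at 0 h that did not pass. At 2 h 1436158_at was higher by 0.39 (adjusted p = 0.0226), with 7.83, 7.58 and 7.60 in hypoxia and 7.39, 7.13 and 7.34 in normoxia, and this was lost without pool 1 of hypoxia (0.126) or pool 2 of normoxia (0.101).

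Eif6, whose product keeps the large ribosomal subunit apart from the small one until it is mature, was higher at 0 h and 2 h in probe set 1427578_a_at, while its other tested probe set, 1431582_at, had changes of -0.02 and 0.10 that did not pass. It had 10.25, 10.32 and 10.43 in hypoxia and 10.09, 10.01 and 10.04 in normoxia at 0 h (change 0.29, limma adjusted p = 0.0157), and 10.41, 10.32 and 10.36 in hypoxia and 10.04, 10.15 and 9.79 in normoxia at 2 h (change 0.37, adjusted p = 0.0071). Treatments did not overlap at either time. The call at 0 h was lost without pool 3 of hypoxia (0.0803) or pool 2 of normoxia (0.0505), and that at 2 h without pool 3 of normoxia (0.0545). The 2 tested probe sets of Eif5a, which helps the ribosome through difficult peptide bonds, had changes of -0.15 and 0.01 at 0 h that did not pass.

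**Figure D3:**
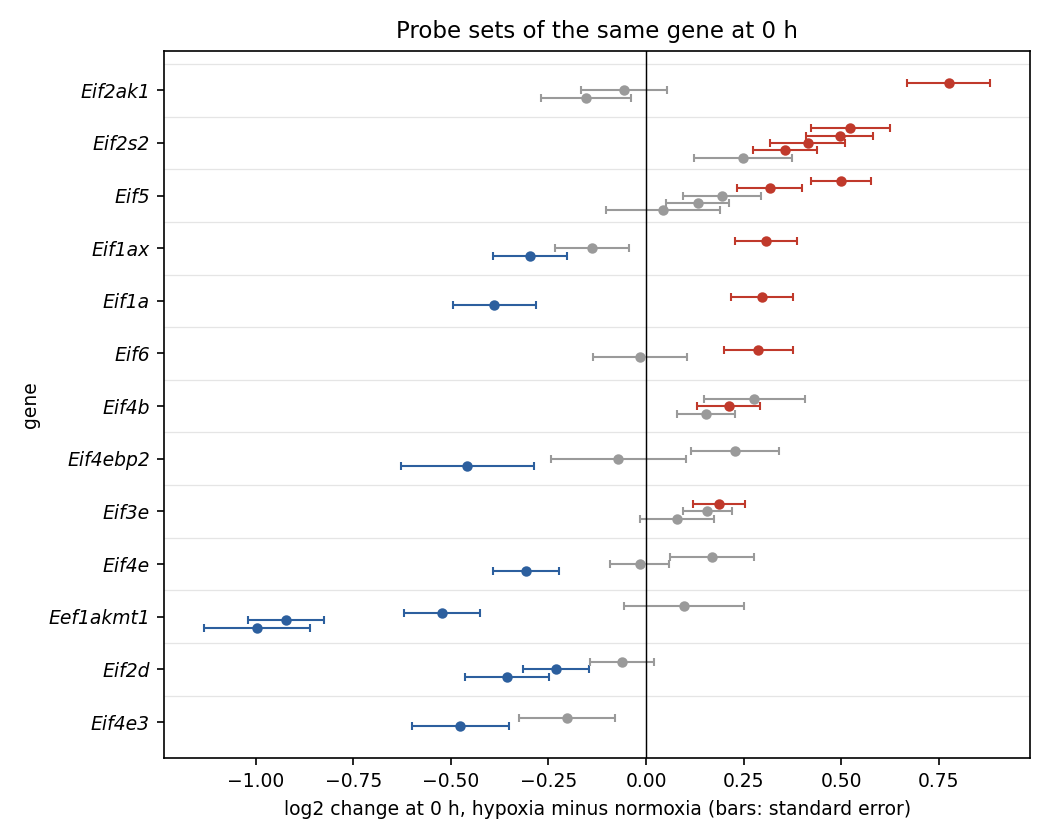
Log2 change at 0 h (hypoxia minus normoxia, horizontal axis) with its standard error for each tested probe set of 13 member genes with at least 1 changed and 1 other probe set. Red points were higher and blue points lower in hypoxia (limma adjusted p under 0.05), and grey points did not pass. Eif2s2 has 4 red points of 5, Eef1akmt1 has 3 blue points of 4, and Eif1a and Eif1ax each have a red and a blue point.

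The elongation factors themselves hardly moved, while 4 of 5 tested probe sets for enzymes that methylate eEF1A were lower at 0 h, against 17.2% of all. The 5 probe sets belong to 2 genes, and Eef1aknmt, the third of that group, was not tested. Eef1a1, which encodes the carrier of aminoacyl-tRNAs, had 13.75, 13.73 and 13.74 in hypoxia and 13.72, 13.75 and 13.77 in normoxia at 0 h, and over all 24 arrays it ran only from 13.65 to 13.82. Its change was -0.01 ± 0.06 at 0 h. Eef2, which moves the ribosome to the next codon, had 12.46, 12.43 and 12.54 in hypoxia and 12.46, 12.47 and 12.21 in normoxia, a change of 0.10 ± 0.08 (limma adjusted p = 0.371). Eef1a2, Eef1b2 and Eef1d had changes between -0.04 and 0.04 at 0 h, and none passed. Of the eEF1 group only Eef1e1 passed, whose product is known as a part of the multi-synthetase complex. It had 10.18, 10.28 and 10.26 in hypoxia and 10.60, 10.52 and 10.56 in normoxia, a change of -0.32 ± 0.08 without overlap (adjusted p = 0.00295). At 2 h the change was -0.12 and did not pass, and the effects at 0 h and 16 h differed by -0.51 (adjusted p = 0.00225).

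Eef1akmt1, a lysine methyltransferase of eEF1A, had the largest changes of all members. Probe set 1449072_a_at had 7.74, 7.95 and 7.97 in hypoxia at 0 h and 8.94, 8.76 and 8.72 in normoxia, a change of -0.92 ± 0.10 (limma adjusted p = 3.56e-07). Probe set 1418386_at had 7.39, 7.71 and 7.63 in hypoxia and 8.66, 8.46 and 8.59 in normoxia, a change of -0.996 ± 0.14 (adjusted p = 1.01e-05), so that the hypoxic level was 0.501 of the normoxic one. The third, 1435270_x_at, had a change of -0.52 (adjusted p = 0.000297), and the fourth, 1435269_at, one of 0.10 that did not pass (adjusted p = 0.665). In the 3 changed probe sets no hypoxic pool reached the lowest normoxic pool. At 2 h the gap had narrowed. For 1449072_a_at the values were 8.33, 8.61 and 8.33 in hypoxia and 8.75, 8.70 and 8.75 in normoxia, a change of -0.31 (adjusted p = 0.0319), which did not pass without pool 1 (0.136) or pool 3 (0.123) of hypoxia or any normoxic pool (0.0559 to 0.0856). Its changes at 4 h and 16 h were -0.06 and 0.01. The later effects, subtracted from the one at 0 h, left -0.61 for 2 h (adjusted p = 0.00704), -0.86 for 4 h (0.000174) and -0.93 for 16 h (7.15e-05). Eef1akmt2, another lysine methyltransferase of eEF1A, stayed lower at both early times. It had 8.55, 8.39 and 8.35 in hypoxia and 8.75, 8.82 and 8.74 in normoxia at 0 h (change -0.35, adjusted p = 0.00429), and 8.24, 8.52 and 8.41 in hypoxia and 8.77, 8.74 and 8.77 in normoxia at 2 h (change -0.37, adjusted p = 0.00632). The call at 2 h was lost without pool 1 of hypoxia (0.0521).

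At the later times no member passed the test. The nearest was Eif4e2, a cap-binding relative that represses translation, whose probe set 1435803_a_at had 7.69, 7.96 and 7.90 in hypoxia at 4 h and 7.29, 7.56 and 7.17 in normoxia. The change was 0.51 ± 0.13 (limma adjusted p = 0.0561), and the 3 other tested probe sets of Eif4e2 had changes of -0.12 to 0.21. Without pool 2 of normoxia at 4 h, 1 member passed at that time. At 16 h the smallest adjusted p of a member was 0.771.

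Whether an effect had faded was tested on the difference between time points. Between 0 h and 2 h the effects differed in 6 of 107 members (5.61%, against 8.21% of all tested probe sets). The pair of 0 h and 4 h gave 16 of 108 (14.8%, against 16.9%), and the pair of 0 h and 16 h gave 19 of 107 (17.8%, against 20.6%). The comparisons share the pools at 0 h. In the difference between 0 h and 4 h, 8 members had the more positive effect at 0 h, among them Eif5, Eif2s2, Eif1b, Eif2ak1 and Eif4ebp1, and 8 the more negative one, among them Eef1akmt1, Eif2b3, Eif2b4, Eif1a, Eif4e3 and Eef1e1. Over all tested probe sets these shares were 6.37% and 10.6%. Eif2ak1 1436006_at and Eif4ebp1 entered these differences only through their hypoxic mean at 0 h, the group in which they were high. Their larger effect at 0 h is therefore favoured by the filter. Leaving out pool 1 of hypoxia at 0 h left 3 of the 6 differences between 0 h and 2 h, and leaving out pool 1 of normoxia at 4 h left 10 of the 16 between 0 h and 4 h.

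Calls differed in how much they rested on single pools. Of the 31 changed members at 0 h, 20 passed after leaving out any 1 of the 6 pools of that time (12 higher and 8 lower), and they belong to 14 genes that include Eif5, Eif2s2, Eif1b, Eif2b3, Eif4e, Eef1e1, Eef1akmt1 and Eef1akmt2. Without Eif2ak1, which entered the test through hypoxia alone, these are 19 probe sets of 13 genes. The counts of changed members over these 6 repeats were 23 to 29. Kept calls were not counted over all probe sets, so that 20 of 31 cannot be set against a general share. At 2 h only 4 of 19 were kept in every repeat, namely Eif1a 1424344_s_at, Eif1ad, Eif5b and Eif1ax 1437071_at, all higher. Without pool 1 of hypoxia at 2 h 5 members changed, without pool 3 of hypoxia 12, without pool 1 of normoxia 12 and without pool 3 of normoxia 7. Calls could differ between probe sets of 1 gene. Of the 26 genes with 2 or more tested probe sets at 0 h, 13 had none that changed, 11 had some that changed in 1 direction beside others that did not, and 2 had probe sets changed in opposite directions. In no such gene did all tested probe sets pass in the same direction. A probe set that did not pass could still lie on the same side of 0. That was so for Eif2s2 (changes of 0.25 to 0.52) and Eif2d (-0.36 to -0.06), while those of Eif4ebp2 lay on both sides (-0.46 to 0.23). The same counts were not made over all genes of the array.

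Sequence upstream of the start of transcription is shown for the changed genes that kept their call at 0 h in every repeat, the 4 with the largest rises and the 3 with the largest falls among those for which RefSeq promoters were at hand. Eif2ak1 is among them although it was tested only through its hypoxic mean. Promoters were taken from RefSeq (build GRCm38.p6), which gave 62 for 47 member genes, and none for Eif2b3, Eif4e3 and Eef1akmt1. The motifs searched were ACGTG and GCGTG on both strands, the core letters of the hypoxia response element to which HIF-1 binds. Capitals mark each match (CACGT and CACGC where the motif lies on the opposite strand, and CACGTG where ACGTG lies on both strands). The 150 bases before the start are printed 5′ to 3′ in the direction of the gene. They lie at chr5:143817642-143817791 on the plus strand for Eif2ak1, at chr2:154892907-154893056 on the minus strand for Eif2s2, at chr12:111537951-111538100 on the plus strand for Eif5 and at chr9:120492456-120492605 on the plus strand for Eif1b. Those of the genes that fell lie at chr7:132852648-132852797 on the minus strand for Eef1akmt2, at chr13:38659029-38659178 on the minus strand for Eef1e1 and at chr3:138527118-138527267 on the plus strand for Eif4e, which has a second promoter farther upstream.
Eif2ak1: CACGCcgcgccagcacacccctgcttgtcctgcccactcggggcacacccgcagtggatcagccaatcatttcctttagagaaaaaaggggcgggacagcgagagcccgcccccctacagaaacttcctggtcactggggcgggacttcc
Eif2s2: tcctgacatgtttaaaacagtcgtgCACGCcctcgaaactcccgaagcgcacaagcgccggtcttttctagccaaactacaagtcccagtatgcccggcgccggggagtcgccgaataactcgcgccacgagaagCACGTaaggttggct
Eif5: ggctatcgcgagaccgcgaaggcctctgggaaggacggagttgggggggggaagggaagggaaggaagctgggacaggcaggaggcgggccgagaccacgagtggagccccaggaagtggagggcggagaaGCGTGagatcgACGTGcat
Eif1b: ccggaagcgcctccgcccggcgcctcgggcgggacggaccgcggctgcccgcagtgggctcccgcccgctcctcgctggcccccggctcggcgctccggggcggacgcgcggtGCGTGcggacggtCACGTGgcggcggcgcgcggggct
Eef1akmt2: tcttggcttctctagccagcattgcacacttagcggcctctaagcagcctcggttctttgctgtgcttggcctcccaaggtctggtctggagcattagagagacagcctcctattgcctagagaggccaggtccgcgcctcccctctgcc
Eef1e1: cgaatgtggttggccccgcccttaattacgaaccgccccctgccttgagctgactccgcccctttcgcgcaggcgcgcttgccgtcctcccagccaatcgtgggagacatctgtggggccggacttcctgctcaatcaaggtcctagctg
Eif4e: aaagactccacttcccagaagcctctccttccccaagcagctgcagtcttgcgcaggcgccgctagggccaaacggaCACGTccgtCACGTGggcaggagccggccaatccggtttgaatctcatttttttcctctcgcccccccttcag

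In these windows the promoters of Eif2ak1, Eif2s2, Eif5 and Eif1b, which rose, and of Eif4e, which fell, hold a match, and those of Eef1akmt2 and Eef1e1, which fell, hold none. Over 300 bases, from 250 before to 50 after the start, 43 of the 62 member promoters (69.4%) hold either motif, against 43.8% of all 32851 promoters. Among members the share was 6 of 9 promoters for genes that rose at 0 h, 3 of 6 for genes that fell and 28 of 39 (71.8%) for tested genes that did not change. A match is a run of letters and no proof of binding. A terminal oligopyrimidine tract marks many mRNAs of the translation machinery. A start of 5 pyrimidines beginning with C, as in such a tract, was found in 2 of the 62 member promoters (3.23%), those of Eif2s3x and Eif3f. Over all promoters the share was 2.51%. The search required C at the annotated first base, so that a tract with a start annotated 1 base off was missed. Eef1a1, annotated to start with TTCCC, was not counted.

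Genes around the factors were followed as lists, each gene by its tested probe set with the highest mean. The integrated stress response, the program that follows phosphorylation of eIF2, had 15 of 22 tested genes higher and none lower at 0 h, with a median change of 0.49, beside 15.2% higher and 17.2% lower among all tested probe sets. Slc7a5, an amino acid transporter, was higher by 1.38 ± 0.17 (limma adjusted p = 3.6e-06), Nupr1, a stress-induced regulator, by 1.54 ± 0.58 (adjusted p = 0.048) and Phgdh, an enzyme of serine synthesis, by 1.09 ± 0.34 (adjusted p = 0.016). Atf4, the transcription factor at the head of the response, was higher by 0.59 ± 0.09 (adjusted p = 3e-05). At 2 h 4 of 21 were higher, with a median of 0.09. Among all tested probe sets at 2 h 9.19% were higher and 7.38% lower. These shares count every tested probe set, while the lists count 1 probe set per gene. The cytosolic aminoacyl-tRNA synthetases, which charge tRNAs, had 10 of 21 genes higher and 2 lower at 0 h (median 0.22) and 10 of 21 higher at 2 h (median 0.17). Cars rose by 1.53 at 0 h, Mars1 by 0.82 and Gars by 0.81, and at 2 h Cars was higher by 0.74.

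Other lists had more lower calls or calls in both directions, which stand beside 15.2% higher and 17.2% lower among all tested probe sets at 0 h. Of the mitochondrial translation factors 4 of 10 were lower and none higher at 0 h (median -0.25), led by Mrrf (-0.61), a ribosome recycling factor, Tsfm (-0.48), an exchange factor, and Gfm1 (-0.39), an elongation factor. At 2 h their median was 0.12. Release, recycling and rescue factors had 1 of 16 higher and 6 lower at 0 h (median -0.12), with Mcts2 at -0.43 and Gtpbp1 at -0.39. Enzymes that modify elongation factors, of the diphthamide and hypusine pathways, had 2 of 8 higher and 5 lower, with Dph5 at 0.47, Dph7 at 0.43 and Dnajc24 at -0.41. Partners of the poly(A) tail and the cap had 2 of 17 higher and 5 lower, with the cap-binding subunit Ncbp2 at -0.93, Pabpc4 at 0.52 and the helicase Dhx29 at -0.45. In the mTORC1 pathway 5 of 24 were higher (20.8%) and 3 lower (12.5%), which is near the shares over all probe sets. The largest changes were those of Ddit4l, an inhibitor of mTORC1 (-1.26), Sesn1, another inhibitor (0.83), and Mknk2, a kinase of eIF4E (0.44). All these values passed limma at an adjusted p under 0.05. The sums of RPE markers also differed between the treatments at 0 h in the same pools, and their part in these lists was not tested.

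**Figure D4:**
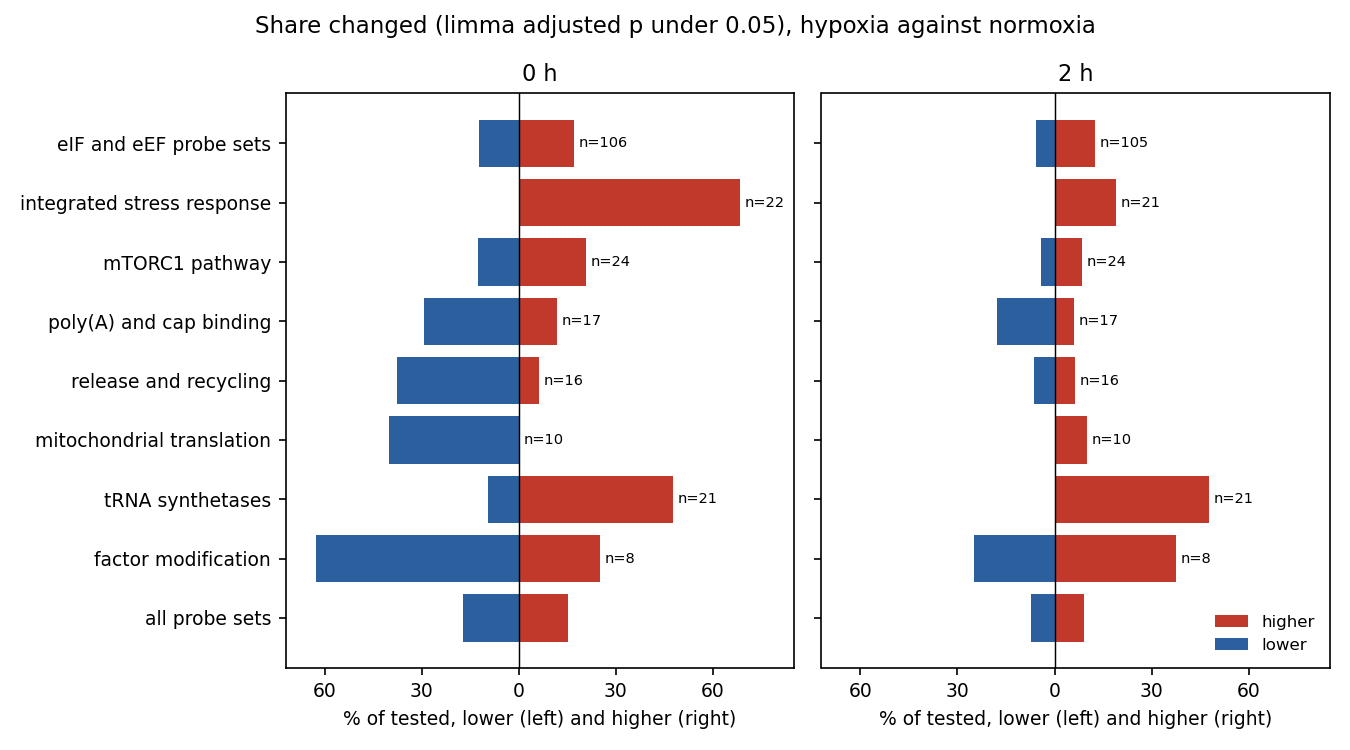
Share of tested members and of the genes of 7 lists that were higher (red, right) or lower (blue, left) in hypoxia (limma adjusted p under 0.05) at 0 h and 2 h, in percent of those tested (n beside each bar), with all tested probe sets at the bottom. At 0 h 15 of 22 integrated stress response genes lie to the right and none to the left, while the eIF and eEF members split into 18 higher and 13 lower of 106.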

How the data were processed

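Retinal RNA of 24 pools was hybridised to 1-colour Affymetrix mouse arrays. The authors deposited log2 values from RMA, a method that subtracts background, makes arrays comparable by quantiles and gives 1 summary per probe set. Its version is not given in the sources used here. The lists of the study itself rested on GCRMA, another summary that was not analysed here. The median log2 value of an array was 5.79 to 5.84. Arrays have no read depth, and their number limits the precision.

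With limma 3.58.1 in R 4.3.3, 1 model with a mean for each of the 8 groups was fitted to all arrays (16 residual degrees of freedom, eBayes). The 64 control probe sets were left out. Testing required a mean of 6.69 in hypoxia or normoxia, the lowest point between density peaks at 3.80 and 7.90. Adjustment was by Benjamini-Hochberg over everything tested in a comparison. Differences between effects were contrasts of contrasts. The p-values and standard errors rest on the spread between pools within all 8 groups. The steps were tested on simulated data. Gene symbols came from the array annotation, in which 34945 probe sets have 1 gene, and all 155 members matched by gene identifier. Promoters came from RefSeq (GRCm38.p6).

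Named members are the 8 genes with the largest changes per time point among those changed, up to 3 changed genes per role and up to 5 differences between effects per pair of times. Up to 6 genes whose probe sets differ in their calls were added. Members that stand beside these, such as the other changed probe sets, subunits that did not pass and Eif4e2, were chosen after their values were seen. In lists up to 3 changed genes are named, and Atf4 was added. Members and lists were chosen with earlier results of these data known. The labels give replicate numbers without a shared animal or day. They were not taken as pairs. No batch is given in the sources used here. Alternatives changed the filter, the scaling, the spread, the arrays in the fit, the threshold and the test, and left out each pool in turn.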

Additional observations from a re-analysis of the deposited data

Results flagged for a closer look

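Members drew attention where the effect of hypoxia differed between 0 h and a later time by limma's test of the difference itself (adjusted p under 0.05 over all tested probe sets). Values are the log2 effect at 0 h (hypoxia minus normoxia) minus that at the later time, with a positive sign where the effect at 0 h was the higher one. No group had enough pools for a test of single outlying pools, and no data outside the comparisons were used. Eif2ak1 1436006_at and Eif4ebp1 1417562_at entered these tests only through their hypoxic mean at 0 h, so that the filter favours a larger effect at 0 h for them.

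Between 0 h and 2 h 6 members differed. The effect at 0 h was higher for Eif2ak1 1436006_at (0.52). It was lower for Eef1akmt1 1418386_at (-0.68), Eif4e3 1417978_at (-0.65), Eif1a 1424343_a_at (-0.62), Eef1akmt1 1449072_a_at (-0.61) and Eif2b4 1449940_a_at (-0.44).

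Between 0 h and 4 h 16 members differed, of which those named here follow. The effect at 0 h was higher for Eif2ak1 1436006_at (0.64), Eif4ebp1 1417562_at (0.63), Eif2s2 1448819_at (0.51), Eif2s2 1417712_at (0.47), Eif1b 1428272_at (0.43) and Eif5 1415723_at (0.42). It was lower for Eef1akmt1 1418386_at (-0.91), Eef1akmt1 1449072_a_at (-0.86), Eif2b3 1434524_at (-0.76), Eif1a 1424343_a_at (-0.55), Eif4e3 1417978_at (-0.53), Eef1akmt1 1435270_x_at (-0.51), Eif2b4 1449940_a_at (-0.41) and Eef1e1 1449044_at (-0.39).

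Between 0 h and 16 h 19 members differed, and again the named ones follow. The effect at 0 h was higher for Eif2ak1 1436006_at (0.91), Eif4ebp1 1417562_at (0.72), Eif2s2 1417712_at (0.58), Eif2s2 1448819_at (0.55), Eif5 1415723_at (0.49), Eif1b 1428272_at (0.45), Eif1ax 1437071_at (0.42) and Eif3l 1423728_at (0.33). It was lower for Eef1akmt1 1418386_at (-1.10), Eef1akmt1 1449072_a_at (-0.93), Eif1a 1424343_a_at (-0.65), Eif2b3 1434524_at (-0.62), Eef1akmt1 1435270_x_at (-0.55), Eef1e1 1449044_at (-0.51), Eif4e 1450908_at (-0.43) and Eif2d 1451211_a_at (-0.38).

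At 4 h and 16 h limma called 0 members between the treatments (13 and 7 had an unadjusted p under 0.05, and trended and robust spread called 2 at 4 h). Effects of opposite sign were seen for Eif2b3, at -0.51 at 0 h and 0.25 at 4 h, for Eif1a 1424343_a_at, at -0.39 at 0 h and 0.26 at 16 h, and for Eif4e3, at -0.48 at 0 h and 0.18 at 2 h, of which the later values did not pass. Eif2b4 had an effect of -0.17 at 0 h, which did not pass, and of 0.27 at 2 h, which did. The sums of RPE markers also differed most at 0 h, 8050 to 8594 in hypoxia against 925 to 1359 in normoxia, and their part in these differences was not tested.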

How the results depend on the processing

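Percentages in brackets are the shares of all probe sets under the same setting. With the adjusted p of the methods' t-test 19 members changed at 0 h (14.9%), against 31 (32.4%), and the other settings gave 23 to 35. At 2 h, against 19 (16.6%), it was 10 with no signal filter (5.98%), 10 with a replicate block within each time point (12.6%), 29 at an adjusted p under 0.1 (23.3%), 3 with the 6 arrays of the time point alone (7.13%) and 0 by the methods' t-test (0.839%). At 4 h, against 0 (1.43%), it was 1 with quantile normalization (1.78%), 2 with a trended and robust spread (2.62%), 2 with array quality weights (3.93%), 1 with a replicate block over all time points (1.63%) and 2 at an adjusted p under 0.1 (3.12%). At 16 h it was 0 in all 13 other settings. Differences between 0 h and 2 h numbered 3 with the 12 arrays of both times alone (4.61%), against 6 (8.21%), and those between 0 h and 4 h 10 with no signal filter (6.54%) and 10 with the 12 arrays alone (15.1%), against 16 (16.9%). Leaving out each pool in turn gave 23 to 29 at 0 h, 5 to 18 at 2 h, 0 to 1 at 4 h, 0 at 16 h, 3 to 8 between 0 h and 2 h, 10 to 17 between 0 h and 4 h and 16 to 20 between 0 h and 16 h. Replicate numbers share no stated animal or day. Of 12 hypoxic and normoxic pairs that share a number and time, 2 had deviations correlated above 0.1 (range -0.23 to 0.24), 8 of 24 arrays correlated best with their own number, and with the replicate block within each time point 26 members changed at 0 h and 0 at 4 h. For named members, no value changed sign while called. Over named members and settings 5100 values kept their side of the threshold, 246 no longer passed and 36 newly passed. The direction of values that passed in neither setting was not compared. The cause of these shifts was not tested beyond the settings themselves. Leaving out both normoxic arrays that stood apart was chosen after seeing the data. It gave 28 (30.1%), 20 (17.8%), 0 (1.79%) and 0 (0%) members at 0, 2, 4 and 16 h. Signal over background limits Eif2ak1 1436006_at, Eif4ebp1 and Eif4ebp2 1417084_at, which are not tested under a threshold stricter by 1.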
